A study of Homo sapiens with 9 samples.

Results

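The liver X receptor axis was followed in Cal-27 cells through 9 genes, taken by symbol from the 16366 genes of the authors' table. They are the receptor genes NR1H2 and NR1H3, and ABCA1, ABCG1, MYLIP, PLTP, LPCAT3, SREBF1 and MLXIPL, which are genes that the receptors are known to induce. The set was chosen with the exosome-against-control values of these libraries known, so folds, intervals and calls against control describe these genes and are no independent evidence of a difference. Cal-27 is an established human line of tongue squamous carcinoma cells, labelled wild type and grown in DMEM rich in glucose to which fetal bovine serum was added. The CAF exosome group received vesicles released by cancer-associated fibroblasts (CAF) in a co-culture of 48 h. The hOMF exosome group was co-cultured for 48 h with hOMF exosomes. The abbreviation is not spelled out in the labels, which write it in more than one way. For the control group the labels name no exosome and no sham treatment. Each of the 3 groups had 3 libraries of poly(A) RNA, all from this 1 cell line. The labels call the libraries replicate samples without saying that the cultures were separate, so every p-value measures only the spread between these libraries, which may be technical.

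Liver X receptors are nuclear receptors that bind oxysterols and other sterol ligands, pair with a retinoid X receptor and sit on DNA at a direct repeat of a half-site with a 4-base spacer, called DR4. Their best known targets move cholesterol out of the cell, limit its uptake and raise fatty acid and phospholipid synthesis, in large part through SREBF1. SREBF1 encodes the SREBP-1 transcription factors, whose precursors are held in the endoplasmic reticulum until they are carried to the Golgi and cut. In keratinocytes, the epithelial cells of skin, the receptors are known for their part in barrier lipids and differentiation.

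The DR4 repeat was searched for in the start regions of the genes, because ABCA1 is known to carry one. RefSeq windows of 300 bases on GRCh38.p14, from 250 bases before a start to 50 after it, matched 8 of the 9 genes with 12 windows. ABCG1 had no window, so its start region was not searched. The half-site AGGTCA was searched as a pair in the same direction with 4 bases between, on both strands, with up to 1 mismatch in each half-site. A match was found in 1 of the 12 windows, that of ABCA1, where it covers positions -69 to -54 counted from the start on the opposite strand to the gene and holds 2 mismatches in all. The same search matched 1.38% of the 35116 windows in the RefSeq table. A sterol regulatory element, TCACNCCAC, was searched exactly on both strands and matched 0 of the 12 windows, against 1.13% of all windows. These counts describe letters in short windows, and the 250 bases before the start of ABCA1 (chr9:104928156-104928405, minus strand), MYLIP (chr6:16128836-16129085, plus strand) and SREBF1 (chr17:17836987-17837236, minus strand) are shown because these genes stand for efflux, uptake and synthesis below. Each is written 5′ to 3′ on the strand of the gene, and capitals mark the DR4 match.
ABCA1: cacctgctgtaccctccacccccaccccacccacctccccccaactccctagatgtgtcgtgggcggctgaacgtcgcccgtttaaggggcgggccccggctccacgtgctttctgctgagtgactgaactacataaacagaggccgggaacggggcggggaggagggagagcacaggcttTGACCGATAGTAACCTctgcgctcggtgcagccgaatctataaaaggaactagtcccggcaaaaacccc
MYLIP: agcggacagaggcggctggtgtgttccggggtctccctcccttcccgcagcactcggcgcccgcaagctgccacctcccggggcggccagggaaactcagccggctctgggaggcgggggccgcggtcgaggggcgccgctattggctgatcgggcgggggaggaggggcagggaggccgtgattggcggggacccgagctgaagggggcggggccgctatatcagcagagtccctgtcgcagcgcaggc
SREBF1: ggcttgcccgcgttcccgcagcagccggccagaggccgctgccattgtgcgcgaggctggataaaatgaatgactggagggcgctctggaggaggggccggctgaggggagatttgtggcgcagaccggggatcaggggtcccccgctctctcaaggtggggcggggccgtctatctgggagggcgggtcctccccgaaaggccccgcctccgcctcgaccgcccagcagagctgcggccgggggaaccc
The SREBF1 window lies at the outermost start of the gene. SREBF1 is known to have a further start inside the gene that makes the shorter SREBP-1c message, which is not covered by this window, and the authors' table gives 1 value for the whole gene.

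The libraries held 11185672 to 12779101 expected counts each, and 12470 genes, all 9 members among them, passed the filter on low counts. Levels are given as CPM, read counts relative to library size after TMM scaling, in replicates 1, 2 and 3, and as FPKM, the authors' values per transcript length, wherever genes are compared with each other. Changes are log2 fold changes, each with the standard error (SE) that edgeR's quasi-likelihood fit over all 9 libraries gave. A gene was called where the p-value, adjusted over all tested genes by Benjamini-Hochberg, was under 0.05. Control replicate 3 stood farthest from the other libraries in a principal component analysis. RNA was measured in bulk, so fewer cells with a message and less message per cell cannot be told apart.

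With CAF exosomes, 7 of the 9 genes were called higher than in control cells and 0 were called lower. With hOMF exosomes, 6 were called higher and 0 lower. The background of all tested genes was 9.51% called higher and 8.64% called lower for CAF exosomes against control, and 11.8% and 11.4% for hOMF exosomes against control. In 7 genes every CAF exosome library lay above every control library, as was the case for 18% of all genes tested, and in 6 genes every hOMF exosome library did, against 20.2% of all genes tested. Nothing is read from these shares, since the genes were chosen on the same comparisons. The median log2 fold change of the 9 genes was 0.92 for CAF exosomes and 1.03 for hOMF exosomes against control, beside medians over all tested genes of -0.005 for CAF exosomes and 0.003 for hOMF exosomes. Both comparisons use the same control libraries.

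**Figure D1:**
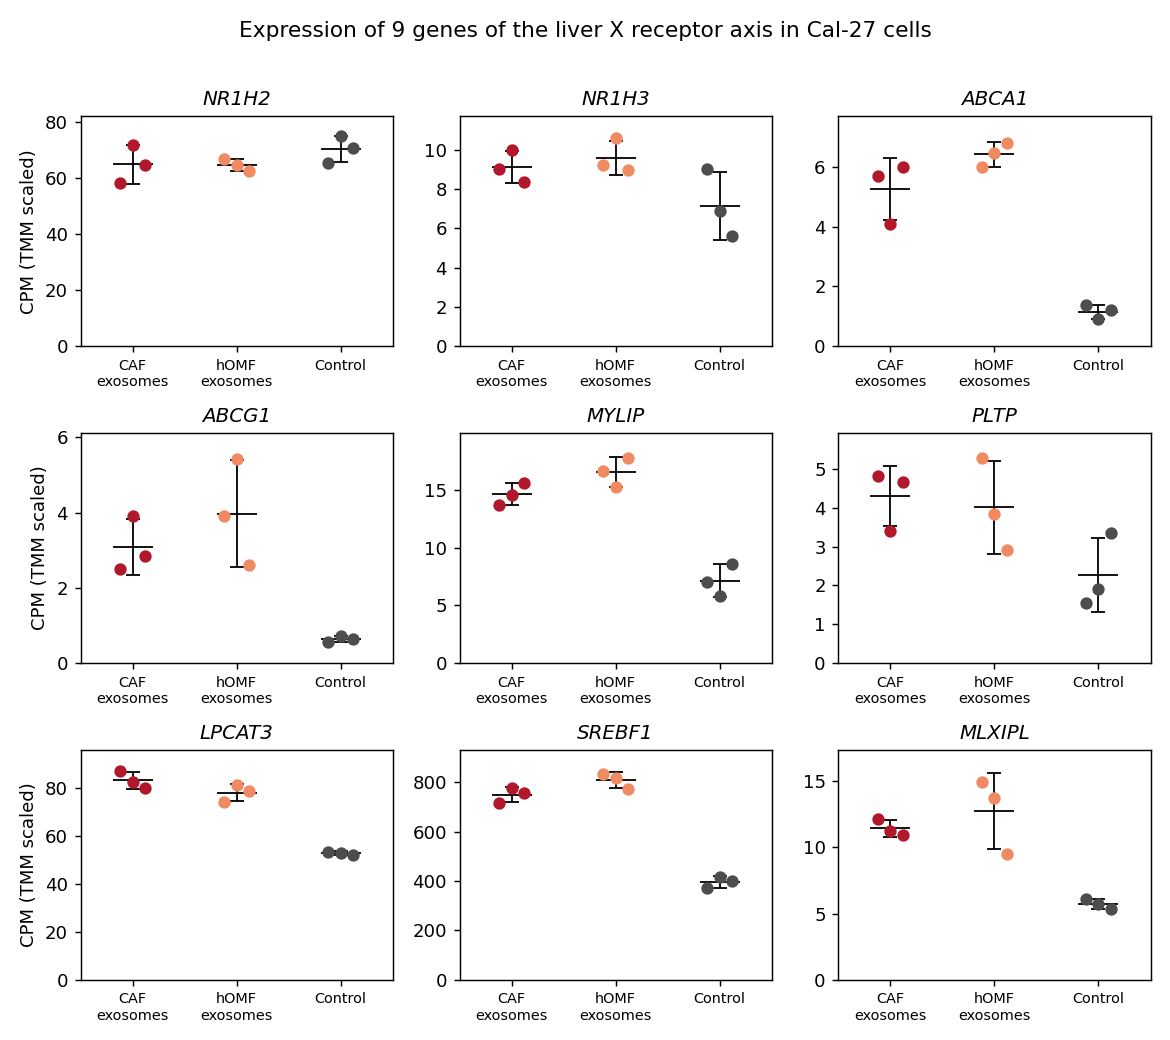
Expression of the 9 genes in each library, in TMM-scaled CPM, with 1 panel per gene, CAF exosome, hOMF exosome and control libraries from left to right, and mean and SD in black. SREBF1 lay between 715 and 833 CPM in the 6 exosome libraries and between 371 and 418 CPM in control, whereas the NR1H2 values of the groups overlap.

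The receptor genes themselves were not called in any comparison. NR1H2, the widely expressed receptor LXR beta (chromosome 19, 50329653 to 50382982 on GRCh38, plus strand), had 58.3, 72.0 and 64.6 CPM with CAF exosomes, 66.8, 64.7 and 62.5 CPM with hOMF exosomes, and 65.5, 75.0 and 71.0 CPM in control cells. The 3 groups overlap, and the log2 fold change was -0.12 with CAF exosomes (SE 0.08, 95% interval -0.29 to 0.06) and -0.12 with hOMF exosomes (SE 0.08, -0.3 to 0.05). NR1H3, the receptor LXR alpha, whose own gene is known in human cells to be induced by the receptor (chromosome 11, 47248300 to 47269032, plus strand), had 9.01, 9.96 and 8.35 CPM with CAF exosomes, 9.20, 10.6 and 8.94 CPM with hOMF exosomes, and 9.0, 6.87 and 5.58 CPM in control cells. Control replicate 1 reached the level of the exosome libraries and the other control libraries lay below all of them. The log2 fold change was 0.36 with CAF exosomes (SE 0.16, 0.01 to 0.7) and 0.43 with hOMF exosomes (SE 0.16, 0.08 to 0.77). Without control replicate 1 both became calls, at 0.56 for CAF exosomes and 0.62 for hOMF exosomes. Per transcript length NR1H2 stood above NR1H3 in every library, and the ratio of their FPKM was 4.73, 5.79 and 5.64 with CAF exosomes, 6.21, 4.66 and 5.23 with hOMF exosomes, and 5.26, 8.07 and 10.6 in control cells.

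The cholesterol efflux transporters had the widest differences of the set. ABCA1, which loads cholesterol and phospholipid onto lipid-poor apolipoprotein A-I (chromosome 9, 104781002 to 104928237, minus strand), had 5.71, 4.09 and 6.01 CPM with CAF exosomes, 5.99, 6.47 and 6.80 CPM with hOMF exosomes, and 1.36, 0.903 and 1.2 CPM in control cells. Every exosome library lay above every control library, and the fitted fold was 4.53 with CAF exosomes (log2 2.18, SE 0.24, 1.67 to 2.69) and 5.52 with hOMF exosomes (log2 2.46, SE 0.23, 1.97 to 2.96). ABCG1, which moves cholesterol to mature high-density lipoprotein (chromosome 21, 42199689 to 42297244, plus strand), had 2.5, 3.92 and 2.84 CPM with CAF exosomes, 3.90, 5.42 and 2.60 CPM with hOMF exosomes, and 0.545, 0.723 and 0.638 CPM in control cells. Again the exosome libraries did not overlap with control, and the fold was 4.79 with CAF exosomes (log2 2.26, SE 0.36, 1.5 to 3.02) and 6.12 with hOMF exosomes (log2 2.61, SE 0.35, 1.88 to 3.35). By size of log2 fold change, ABCG1 and ABCA1 were numbers 4 and 7 of 12470 genes with CAF exosomes and numbers 6 and 7 with hOMF exosomes.

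These transporter values rest on few reads. ABCA1 had 184 counts over the CAF exosome libraries (exact 95% Poisson interval 158.4 to 212.6), 232 over the hOMF exosome libraries (203.1 to 263.9) and 40 over the control libraries (28.6 to 54.5). ABCG1 had 108 counts with CAF exosomes (88.6 to 130.4), 141 with hOMF exosomes (118.7 to 166.3) and 22 in control cells (13.8 to 33.3). The intervals cover counting error only. The added 1 exceeds most of their values on quantile-normalized log2(FPKM + 1). There the log2 difference of ABCA1 was 0.42 with CAF exosomes and 0.50 with hOMF exosomes. That of ABCG1 was 0.60 with CAF exosomes and 0.79 with hOMF exosomes, and all remained calls.

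MYLIP encodes the ubiquitin ligase IDOL, which limits the uptake of cholesterol (chromosome 6, 16129125 to 16148248, plus strand). It had 13.7, 14.6 and 15.6 CPM with CAF exosomes, 16.7, 15.2 and 17.8 CPM with hOMF exosomes, and 7.00, 5.78 and 8.61 CPM in control cells. The lowest exosome library was above the highest control library, and the fold was 2.04 with CAF exosomes (log2 1.03, SE 0.14, 0.74 to 1.32) and 2.31 with hOMF exosomes (log2 1.21, SE 0.14, 0.92 to 1.5).

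SREBF1 (chromosome 17, 17810399 to 17837002, minus strand) had 715, 777 and 757 CPM with CAF exosomes, 833, 817 and 774 CPM with hOMF exosomes, and 371, 418 and 400.1 CPM in control cells. The exosome libraries did not overlap with the control libraries, and the CV of SREBF1 was 4.20% with CAF exosomes, 3.80% with hOMF exosomes and 6.02% in control cells. The fold was 1.89 with CAF exosomes (log2 0.92, SE 0.07, 0.77 to 1.07) and 2.04 with hOMF exosomes (log2 1.03, SE 0.07, 0.88 to 1.18). SREBF2, the related gene whose product drives mainly cholesterol synthesis, was not called. Its log2 fold change was 0.2 with CAF exosomes (SE 0.07, 0.05 to 0.35) and 0.17 with hOMF exosomes (SE 0.07, 0.02 to 0.32). Both intervals lie above 0, and every exosome library lay above every control library. The latter was so for 18% of all tested genes with CAF exosomes and 20.2% with hOMF exosomes. The ratio of SREBF1 to SREBF2 in FPKM was 0.768, 1.03 and 0.834 with CAF exosomes, 0.995, 0.959 and 0.877 with hOMF exosomes, and 0.454, 0.535 and 0.556 in control cells, with no overlap between exosome and control libraries.

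MLXIPL encodes ChREBP, the carbohydrate-responsive factor that acts beside SREBP-1 on lipid synthesis (chromosome 7, 73593194 to 73624543, minus strand). It had 12.1, 11.2 and 10.9 CPM with CAF exosomes, 14.9, 13.7 and 9.48 CPM with hOMF exosomes, and 6.09, 5.69 and 5.34 CPM in control cells. All exosome libraries lay above control, with hOMF exosome replicate 3 the lowest of them, and the fold was 2 with CAF exosomes (log2 1, SE 0.17, 0.65 to 1.35) and 2.22 with hOMF exosomes (log2 1.15, SE 0.16, 0.8 to 1.5).

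The remaining genes act on phospholipids. LPCAT3, which adds polyunsaturated acyl chains to lysophosphatidylcholine (chromosome 12, 6976186 to 7018510, minus strand), had 87.1, 82.4 and 80.1 CPM with CAF exosomes, 74.3, 81.4 and 78.7 CPM with hOMF exosomes, and 53.5, 53.0 and 52.1 CPM in control cells. No exosome library reached down to control, and the fold was 1.57 with CAF exosomes (log2 0.65, SE 0.07, 0.51 to 0.8) and 1.48 with hOMF exosomes (log2 0.56, SE 0.07, 0.41 to 0.71). The exons of LPCAT3 overlap those of EMG1 on the opposite strand over 65.6% of their bases, and the sources used here do not give the strand setting of the authors' counting. EMG1 fell with CAF exosomes (log2 -0.38, adjusted p = 0.0151) and with hOMF exosomes (log2 -0.44, adjusted p = 0.00493), the direction opposite to LPCAT3. SREBF1, PLTP and NR1H3 share 6.9%, 7.9% and 4.2% of their exonic bases with RAI1, CTSA and ACP2 on the opposite strand, and none of these neighbours was called against control.

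PLTP, the phospholipid transfer protein of plasma lipoproteins (chromosome 20, 45898621 to 45912155, minus strand), was the 1 gene called with CAF exosomes whose call was lost when single libraries were left out. It had 4.82, 3.40 and 4.67 CPM with CAF exosomes, 5.29, 3.85 and 2.90 CPM with hOMF exosomes, and 1.55, 1.90 and 3.35 CPM in control cells. CAF exosome replicate 2 was only just above control replicate 3, and hOMF exosome replicate 3 was below it. The log2 fold change was 0.9 with CAF exosomes (SE 0.29, 0.28 to 1.52), which was called, and 0.8 with hOMF exosomes (SE 0.29, 0.17 to 1.42), which was not. The CAF exosome call was lost without CAF exosome replicate 1 (0.82), CAF exosome replicate 3 (0.85), hOMF exosome replicate 2 (0.9), control replicate 1 (0.7) or control replicate 2 (0.79), while the hOMF exosome value became a call without hOMF exosome replicate 3 (1) or control replicate 3 (1.21).

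**Figure D2:**
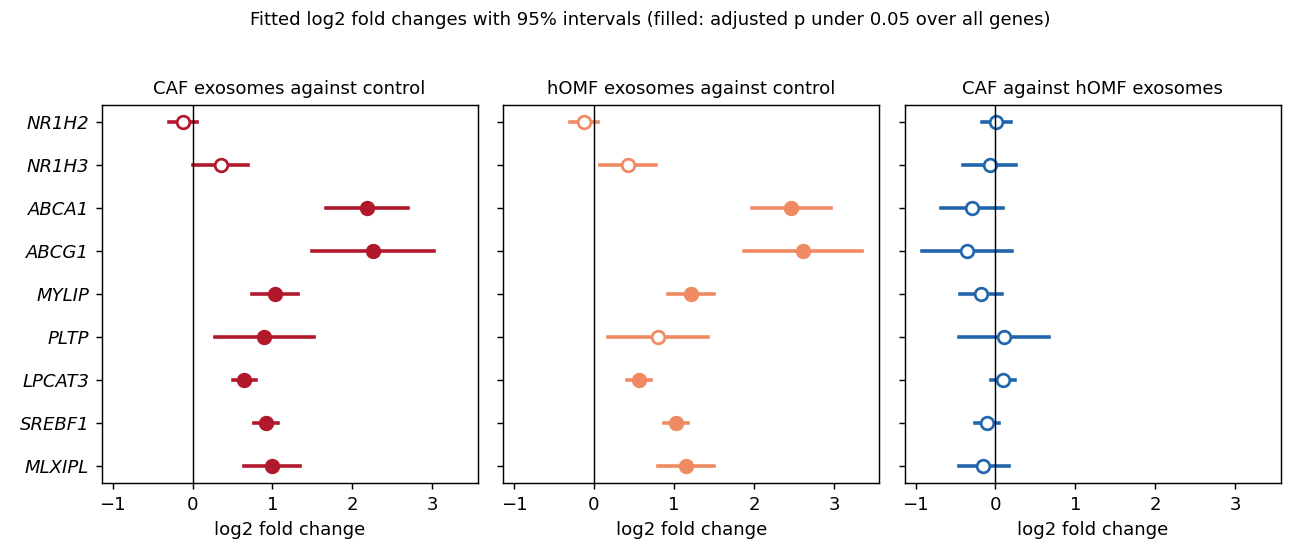
Log2 fold changes of the 9 genes with 95% intervals, for CAF exosomes against control, hOMF exosomes against control, and CAF exosomes against hOMF exosomes, with filled points for called genes. ABCA1 and ABCG1 lie between 2.18 and 2.61 in the first 2 panels, and every interval in the third panel includes 0.

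CAF and hOMF exosomes were then compared with each other, to ask whether the origin of the exosomes made a difference. Of all genes tested, 0.016% were called in either direction, and none of the 9 was called or had an unadjusted p under 0.05. The median log2 fold change of the 9 genes, CAF over hOMF exosomes, was -0.11, with a range from -0.35 for ABCG1 to 0.11 for PLTP. For SREBF1 the difference was -0.11 (95% interval -0.26 to 0.04, adjusted p = 0.778), and for LPCAT3 it was 0.09 (-0.05 to 0.24, adjusted p = 0.825), so for both genes the interval stays within 0.26 log2 units of 0. The transporters are less tightly bound, at -0.29 for ABCA1 (-0.68 to 0.1, adjusted p = 0.778) and -0.35 for ABCG1 (-0.92 to 0.21, adjusted p = 0.827). MYLIP differed by -0.18 (-0.44 to 0.08, adjusted p = 0.806), MLXIPL by -0.15 (-0.46 to 0.17, adjusted p = 0.883) and PLTP by 0.11 (-0.46 to 0.67, adjusted p = 0.971). NR1H2 differed by 0.01 (-0.17 to 0.19, adjusted p = 0.989) and NR1H3 by -0.07 (-0.4 to 0.26, adjusted p = 0.963). A p-value that misses the threshold does not show that the exosomes act alike.

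Per transcript length the genes covered a wide span of levels. With CAF exosomes SREBF1 stood at 178.8 ± 17.0 FPKM (SD, n = 3 for each mean), LPCAT3 at 42.3 ± 2.03, NR1H2 at 39.1 ± 4.37, NR1H3 at 7.25 ± 0.424, MYLIP at 5.35 ± 0.473, MLXIPL at 4.15 ± 0.316, PLTP at 2.70 ± 0.526, ABCG1 at 0.893 ± 0.318 and ABCA1 at 0.530 ± 0.0954 FPKM. Only LPCAT3 and NR1H2 overlapped among neighbours in this order. With hOMF exosomes SREBF1 stood at 192.6 ± 9.29 FPKM, LPCAT3 at 40.4 ± 2.24, NR1H2 at 39.3 ± 1.64, ABCG1 at 1.21 ± 0.451 and ABCA1 at 0.653 ± 0.0651 FPKM, and LPCAT3 with NR1H2, NR1H3 with MYLIP, and MLXIPL with PLTP overlapped. In control cells SREBF1 had 90.0 ± 5.41 FPKM, NR1H2 41.4 ± 2.81, LPCAT3 26.3 ± 0.147, NR1H3 5.56 ± 1.62, MYLIP 2.69 ± 0.552, MLXIPL 1.96 ± 0.102, PLTP 1.45 ± 0.641, ABCG1 0.200 ± 0.0361 and ABCA1 0.113 ± 0.0208 FPKM. There NR1H2 stood above LPCAT3, and the only neighbours to overlap were MLXIPL and PLTP. The transporters with the widest relative differences were thus the lowest of the set in every group.

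**Figure D3:**
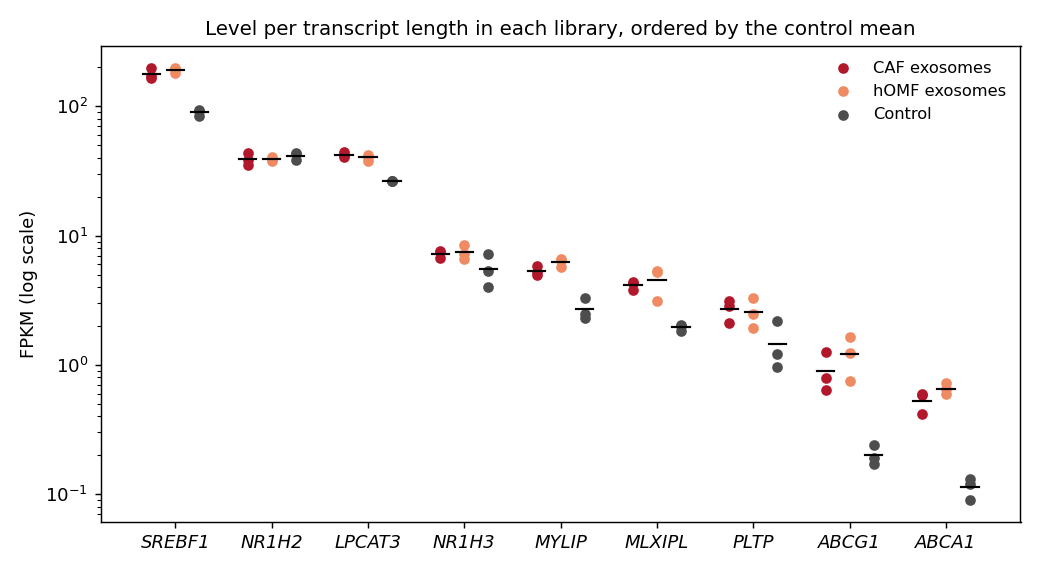
FPKM of the 9 genes in each library on a log axis, with CAF exosome, hOMF exosome and control libraries from left to right within a gene, bars at the group means and genes ordered by the control mean. SREBF1 is highest in every group, and ABCA1, at 0.113 FPKM on average in control cells, is lowest.

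Profiles were also compared over the 9 libraries, by the root mean square difference of log2 CPM after centring each gene, among 12216 genes. Likeness is a description of these libraries, which fall into exosome and control libraries. Among the members, SREBF1 was closest to MLXIPL (0.17) and MYLIP (0.19), and ABCA1 and ABCG1 were 0.43 apart, whereas SREBF1 and ABCA1 were 0.62 apart. The genes most like SREBF1 were FASN (0.07), the fatty acid synthase, then PIP5KL1 (0.09) and NLRP1 (0.1), an inflammasome sensor. FASN had 3866, 4014 and 4465 CPM with CAF exosomes, 4651, 4715 and 4527 CPM with hOMF exosomes, and 2060.0, 2492 and 2459 CPM in control cells. Nearest to MYLIP were SPSB2 (0.11), ENTPD8 (0.14), an ectonucleotidase, and GRAMD1C (0.17), a sterol transfer protein. Nearest to ABCA1 were CYP1A1 (0.23), a cytochrome P450 of xenobiotic metabolism, PADI1 (0.29), a peptidylarginine deiminase of the epidermis, and NFATC4 (0.41), and nearest to ABCG1 were KLRK1 (0.37), STRA6 (0.39), a receptor for retinol-binding protein, and PADI1 (0.4). KLRK1 shares exons with a read-through transcript of a neighbouring gene, so its estimated counts are uncertain.

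Beyond the 9 genes, lists of the surrounding pathway were described by their calls, with log2 fold changes and list medians against control. Of all tested genes, 9.51% were called higher and 8.64% lower with CAF exosomes, and 11.8% and 11.4% with hOMF exosomes. Each list holds few genes, so its counts are a description to be read beside these shares. FASN and SCD stand in the lists of receptor targets and of SREBP-1 targets, and INSIG1 in those of SREBP-2 targets and of SREBP processing. Of 19 other known targets of the receptors, 12 were in the table and 8 were tested, and 4 rose and 1 fell with either kind of exosome. FASN rose by log2 0.82 with CAF exosomes and 0.99 with hOMF exosomes, SCD, the stearoyl-CoA desaturase, by 0.67 with CAF exosomes and 0.7 with hOMF exosomes, TTC39B by 0.56 with CAF exosomes and 0.69 with hOMF exosomes, and RNF145 by 0.32 with CAF exosomes and 0.41 with hOMF exosomes. APOE, the apolipoprotein E gene, was not called, at 0.08 with CAF exosomes and 0.37 with hOMF exosomes. The list's median was 0.32 with CAF exosomes and 0.39 with hOMF exosomes.

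The partners and co-regulators of the receptors included no gene that was called higher. Over all tested genes, the share called higher was 9.51% with CAF exosomes and 11.8% with hOMF exosomes. The share called lower was 8.64% with CAF exosomes and 11.4% with hOMF exosomes. In a list of this size nothing is read from the absence of rises. Of 17 tested, 0 rose and 3 fell with CAF exosomes, and 0 rose and 4 fell with hOMF exosomes, with medians of -0.07 with CAF exosomes and -0.01 with hOMF exosomes. The acetyltransferase gene CREBBP fell in both comparisons (log2 -0.41 with CAF exosomes and -0.4 with hOMF exosomes), as did the Mediator gene MED1 (-0.32 with CAF exosomes and -0.31 with hOMF exosomes), while GPS2 fell with hOMF exosomes (-0.3). RXRA, a partner of the receptors, was not called, at -0.07 with CAF exosomes and -0.09 with hOMF exosomes. The number of falls depended on single libraries, although at least 1 fall was called in each comparison under every alternative. Leaving out replicate 2 of the CAF exosome or of the control group left 1 called with CAF exosomes. With hOMF exosomes 1 was called without hOMF exosome replicate 1, control replicate 2 or control replicate 3. Without hOMF exosome replicate 2, hOMF exosome replicate 3 or CAF exosome replicate 3, 2 were called with hOMF exosomes. Of 10 genes that make or remove sterol ligands, 3 were tested, and CYP39A1, an oxysterol hydroxylase, rose by 0.7 with CAF exosomes and 0.77 with hOMF exosomes, with list medians of 0.15 with CAF exosomes and 0.05 with hOMF exosomes, and its CAF exosome call was lost without control replicate 2.

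Among 16 tested lipogenic targets of SREBP-1, 8 rose and 1 fell with CAF exosomes, and 10 rose and 1 fell with hOMF exosomes, and the median was 0.35 in both. ME1, the malic enzyme that supplies NADPH, rose by 0.71 with CAF exosomes and 0.87 with hOMF exosomes, and ACSS2, an acetyl-CoA synthetase, rose by 0.78 with CAF exosomes and 0.8 with hOMF exosomes. FADS2, a fatty acid desaturase, fell in both, at -0.37 with CAF exosomes and -0.56 with hOMF exosomes, but in 13 of the 20 alternatives it was no longer called with CAF exosomes, which includes the fits that left out replicate 2 or 3 of any group. Among 19 tested sterol synthesis targets of SREBP-2, 8 rose and 0 fell with CAF exosomes, and 8 rose and 1 fell with hOMF exosomes, with smaller medians of 0.17 with CAF exosomes and 0.16 with hOMF exosomes. Without CAF exosome replicate 3, control replicate 2 or control replicate 3, 5 rose with CAF exosomes. MSMO1, a sterol oxidase of cholesterol synthesis, rose by 0.51 with CAF exosomes and 0.46 with hOMF exosomes. Of 12 genes of SREBP processing, 2 rose and 0 fell with CAF exosomes and 2 rose and 1 fell with hOMF exosomes, with medians of 0.16 with CAF exosomes and 0.09 with hOMF exosomes. These list counts stand beside 9.51% of all tested genes called higher with CAF exosomes and 11.8% with hOMF exosomes. The shares called lower were 8.64% and 11.4%, and nothing is read from the small counts of SREBP processing. INSIG1, which holds the precursors in the endoplasmic reticulum and is itself an SREBP target, rose by 0.65 with CAF exosomes and 0.67 with hOMF exosomes. When single libraries were left out, the number that rose with CAF exosomes was 1 in the absence of CAF exosome replicate 1, and 4 if CAF exosome replicate 2 or control replicate 1 was missing. With hOMF exosomes it was 1 if replicate 2 or 3 of the hOMF exosome or control group, or CAF exosome replicate 3, was missing.

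The lists that follow are small, and over all tested genes 9.51% were called higher and 8.64% lower with CAF exosomes. With hOMF exosomes these shares were 11.8% and 11.4%, and nothing is read from counts near them. In the ChREBP module, 1 of 6 tested genes rose in each comparison, TKFC at 0.37 with CAF exosomes and 0.28 with hOMF exosomes, with medians of -0.07 with CAF exosomes and 0.01 with hOMF exosomes. The hOMF exosome call of TKFC was lost without hOMF exosome replicate 1, control replicate 2 or control replicate 3. TXNIP, a known target of ChREBP and its relative MondoA, was not called, at -0.04 with CAF exosomes and 0.03 with hOMF exosomes. Of 16 genes of sterol traffic, 1 rose and 1 fell with CAF exosomes and 3 rose and 2 fell with hOMF exosomes, with medians of 0.1 with CAF exosomes and 0.02 with hOMF exosomes. ABCA5, a transporter related to ABCA1, rose by 0.77 with CAF exosomes and 1.04 with hOMF exosomes, and CAV1, the caveolin gene, fell, at -0.26 with CAF exosomes and -0.33 with hOMF exosomes, with the CAF exosome call lost without CAF exosome replicate 3. SCARB1, the high-density lipoprotein receptor gene, was at 0 with CAF exosomes and fell with hOMF exosomes (-0.26). Of 12 further lysophospholipid acyltransferases, 5 rose and 0 fell with CAF exosomes and 4 rose and 1 fell with hOMF exosomes, with a median of 0.11 in both. LPCAT4 rose by 0.39 with CAF exosomes and 0.27 with hOMF exosomes. With CAF exosomes 2 rose if CAF exosome replicate 1 was left out, and 3 if it was CAF exosome replicate 3 or control replicate 2. The 1 fall with hOMF exosomes, of AGPAT5 (-0.23), was lost on leaving out replicate 1 or 2 of the hOMF exosome group, or replicate 1 or 3 of control. Between CAF and hOMF exosomes 0 genes of these lists were called by edgeR, and 1 gene of sterol traffic was called by DESeq2.

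**Figure D4:**
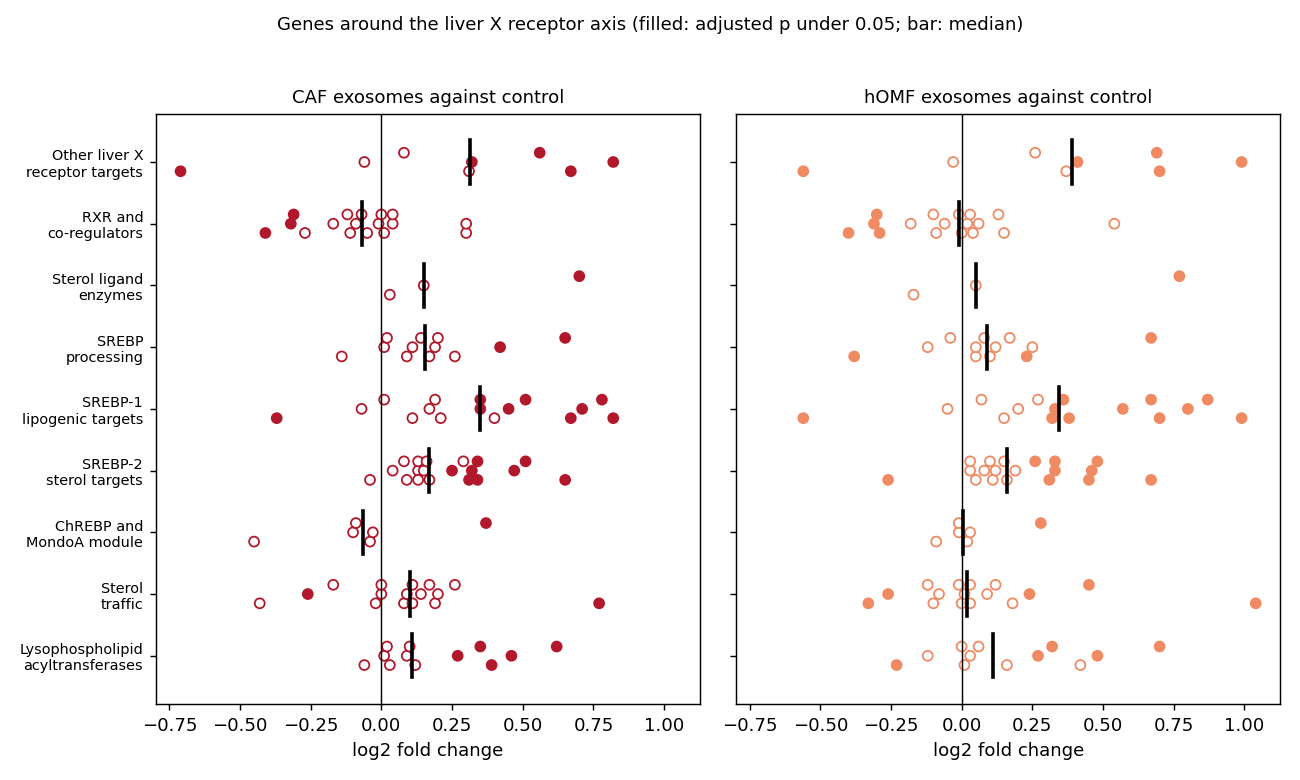
Log2 fold changes of the tested genes of 9 lists around the receptors, for CAF exosomes against control on the left and hOMF exosomes against control on the right, with filled points for called genes and bars at the medians. The SREBP-1 lipogenic list has a median of 0.35 in both panels, and the partners and co-regulators have a median of -0.07 in the left panel and -0.01 in the right.

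Markers of the labelled cell type were present in every library. All 10 squamous markers were in the table, and their summed level was 6855 to 6905 CPM with CAF exosomes, 5714 to 6544 CPM with hOMF exosomes and 4810 to 6224 CPM in control cells, so it moved with the CAF exosome group. Of the 10, 4 rose with CAF exosomes and 2 with hOMF exosomes, among them the keratin gene KRT5, by 0.72 with CAF exosomes and 0.51 with hOMF exosomes. Over all tested genes 9.51% were called higher with CAF exosomes and 11.8% with hOMF exosomes. Of 10 fibroblast markers 9 were in the table, and they summed to 48.6 to 51.4 CPM with CAF exosomes, 46.2 to 57.3 CPM with hOMF exosomes and 38.1 to 44.0 CPM in control cells. Most of that sum was COL1A1, and DCN was at 0 in 7 of 9 libraries and at most 0.16 CPM. Of 4 fibroblast markers tested, 1 was called higher and 3 were not called in each comparison with control. The called marker, LUM, rose by 1.06 with CAF exosomes and 0.94 with hOMF exosomes, from a low level. It averaged 3.03 CPM with CAF exosomes, 2.78 CPM with hOMF exosomes and 1.45 CPM in control cells. Of 10 macrophage markers 9 were in the table, and they summed to 44.7 to 51.1 CPM with CAF exosomes, 43.1 to 46.7 CPM with hOMF exosomes and 44.3 to 62.5 CPM in control cells. CD163 was at most 0.0874 CPM in any library. In control replicate 3 PTPRC was at 7.50 CPM, AIF1 at 5.10 CPM, LYZ at 2.87 CPM and TYROBP at 1.44 CPM. In the other libraries PTPRC was at most 0.0909 CPM, LYZ was at most 0.535 CPM, and AIF1 and TYROBP were at 0. Of the 3 markers tested, CSF1R, the receptor gene for colony-stimulating factor 1, fell with hOMF exosomes (log2 -0.56, adjusted p = 0.0231 by edgeR), and none was called with CAF exosomes. The other tested markers, CD14 and CD68, did not fall with it and were not called. CD14 averaged 6.87 CPM with CAF exosomes, 7.07 CPM with hOMF exosomes and 5.44 CPM in control cells. CD68 averaged 33.9, 31.8 and 31.9 CPM in the same order. The CSF1R call was lost without hOMF exosome replicate 1 (-0.53) or 2 (-0.49) or without control replicate 1 (-0.44) or 2 (-0.58), and that of LUM with hOMF exosomes without hOMF exosome replicate 2 (0.79). The part of these markers in the changes of the receptor axis was not tested. Without control replicate 3, all 7 genes called with CAF exosomes kept their calls.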

How the data were processed

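RNA was sequenced as paired reads from poly(A)-selected libraries whose second cDNA strand carried dUTP and was digested, per the labels' protocols. Per the submitters' processing notes, Bowtie2 2.2.5 and RSEM 1.2.8 were used. The notes name a mouse build while the gene symbols are those of human genes, which leaves the authors' build uncertain. Coordinates come from GENCODE 29 on GRCh38 and from RefSeq on GRCh38.p14. The authors deposited expected counts (RSEM estimates), FPKM and TPM for each library. The TPM values deposited by the authors and their group means were not used. FPKM values deposited by the authors served for levels between genes and for alternatives. Every per-library column was matched to a sample by its name, leaving 0 without one.

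Expected counts, 90.5% to 92% of them whole to within 0.001, were rounded, filtered with filterByExpr (minimum count 10, minimum total 15), scaled by TMM and fitted with edgeR's quasi-likelihood model (two-sided, group as the only term, 6 residual degrees of freedom). p-values were adjusted by Benjamini-Hochberg over 12470 genes, and SE was the log2 fold change divided by the square root of F. Replicates differed by more than sampling noise (chi-square per degree of freedom 3.16 to 11.5). The 9 members, the lists and the tests were chosen with earlier results of these data known. Named genes were all members, up to 4 called genes per list and comparison by smallest p, uncalled list genes by their values, and the 3 genes most like SREBF1, MYLIP, ABCA1 and ABCG1 among genes with a mean of at least 1 CPM, using log2 CPM with a prior count of 2. Fibroblast and macrophage markers were included to look for other cell types. Some genes, such as SREBF2, RXRA, APOE and TXNIP, were named after their values were seen. Alternatives were other scalings and tests, pseudocounts, no filter, only the groups compared, a replicate block, a GC and length offset, and leaving out each library, 20 in all. The fits used edgeR 4.0.16 under R 4.3.3, the alternatives DESeq2 1.42.0 and limma 3.58.1, and figures were drawn with matplotlib 3.10.9 under python 3.11.15. Single values of some genes of the lists are not reported here.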

Additional observations from a re-analysis of the deposited data

How the results depend on the processing

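ABCA1, ABCG1, MYLIP, SREBF1, MLXIPL and LPCAT3 kept their direction and their call against control under all 20 alternatives, for both kinds of exosome. SREBF1 ranged from 0.87 to 0.99 with CAF exosomes and from 0.98 to 1.1 with hOMF exosomes. PLTP lost its CAF exosome call under 6 alternatives, the 5 libraries already named and quantile-normalized log2(FPKM + 1) (0.54), and gained one for hOMF exosomes under 5, which besides the 2 libraries named were library totals without TMM (0.85), log2(FPKM + 0.1) (0.82) and the GC and length offset (0.76). NR1H3 was called for hOMF exosomes without TMM as well (0.48). The cause of these shifts was not tested. Members called against control ranged from 6 to 7 with CAF exosomes and from 6 to 7 with hOMF exosomes when 1 library was left out, and reached 8 with hOMF exosomes without TMM. Between CAF and hOMF exosomes 0 members were called throughout.

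Small differences between CAF and hOMF exosomes changed sign. NR1H2 was at -0.02 without TMM, -0.01 on log2(FPKM + 1), -0.01 on log2(FPKM + 0.1), -0.01 with the GC and length offset, -0.07 without CAF exosome replicate 2 and -0.02 without hOMF exosome replicate 3. NR1H3 was at 0.02 after quantile normalization and 0.01 without hOMF exosome replicate 2, and PLTP was at -0.09 without hOMF exosome replicate 3. Leaving out 1 library gave -0.07 to 0.08 for NR1H2, -0.14 to 0.01 for NR1H3 and -0.09 to 0.35 for PLTP.

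Over all genes, the 2 calls between CAF and hOMF exosomes became 36 with DESeq2, 20 with the GC and length offset, and 0 without TMM, with quantile-normalized FPKM, limma-voom, log2(FPKM + 1), log2(FPKM + 0.1) or only these 2 groups, where 947 genes had an unadjusted p under 0.05 in the fit of all libraries, and 0 to 8 when 1 library was left out. Leaving out 1 library gave 1343 to 2389 calls for CAF exosomes against control and 1695 to 3096 for hOMF exosomes against control, where all libraries gave 2264 and 2896. Of the calls with CAF exosomes 52.4% were higher, against 63.1% without TMM, 64% on log2(FPKM + 1) and 64.5% on log2(FPKM + 0.1), and with hOMF exosomes 50.9% against 67%, 68.7% and 69%. The GC and length offset went the other way, with 45.2% higher for CAF exosomes and 43.7% for hOMF exosomes, and DESeq2 gave 51% and 47.6%. Replicate numbers recur in all groups, but libraries with the same number did not deviate together (correlations -0.15 to 0.14). With the replicate block 2101, 2718 and 2 genes were called in the 3 comparisons, with 7, 6 and 0 members. Counts in the pathway lists also moved. Falls among partners and co-regulators ranged from 1 to 4 with CAF exosomes (3 in the full fit) and 1 to 4 with hOMF exosomes (4), rises among SREBP-2 targets from 5 to 11 (8) and 6 to 11 (8), among SREBP-1 targets from 7 to 9 (8) and 8 to 13 (10), in SREBP processing from 1 to 4 (2) and 1 to 3 (2), and among acyltransferases from 2 to 5 (5) and 3 to 5 (4). The fall of FADS2 with CAF exosomes was also lost without TMM, on all 3 FPKM scales, without a filter, with only the groups compared and with the replicate block, and DESeq2 called 1 sterol traffic gene between CAF and hOMF exosomes. Counts of 6 to 8 reads per control library limit ABCG1.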
